A study of Homo sapiens with 9 samples.

Results

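Collagen genes were taken from the deposited gene table of histone H2A as the autosomal genes whose symbol has the form COL, a type number, A and a chain number. This gave 39 genes of 20318 in the table, or of 19400 on autosomes, and all 39 passed the minimum of a mean of 0.1 RPKM (reads per kilobase of gene, scaled to library depth). The X-linked COL4A5 and COL4A6 fall outside this rule, as do COL19A1 and COL27A1, which carry a dot in the symbol column. COL26A1 was not analysed here. The cells were T47D-MTVL, a luminal line from human breast cancer with an integrated reporter under the mouse mammary tumour virus promoter. All groups had been kept in medium with charcoal-treated serum and then without serum. The 0 min groups were unstimulated, and the 30 and 60 min groups had received 10 nM R5020, a synthetic progestin that activates the progesterone receptor. ChIP-seq was done for H2A, a core histone, at 0, 30 and 60 min, and for HP1γ (a heterochromatin protein), LSD1 (a histone demethylase) and BPTF (a subunit of the NURF chromatin remodeller) at 0 and 30 min. Each antibody and time had 1 library, so each difference below lies between 2 libraries, has no replicate check and carries no p-value. The series holds no expression data, so the labelled cell type could not be checked against marker expression.

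Collagens are secreted or membrane-bound proteins whose chains wind around each other into helices, and they form most of the extracellular matrix. Fibroblasts and other stromal cells are known as the main makers of the fibrillar types in breast tissue, while epithelial cells are known to contribute to the basement membrane. Classes of collagen differ in the structure they build: fibrils, networks under epithelia, beaded filaments, linkers on the surface of fibrils, or anchors in the cell membrane. The genes are known for many exons and are spread over the genome. Here they spanned 10 to 489 kb, with a median of 118 kb against 22.1 kb for all autosomal genes, and their GC content ran from 33.1% to 64.7%.

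H2A over the 39 genes moved by small amounts. The change is the log2 ratio of RPKM plus 0.05 between 2 times, and its counting standard error (SE) covers the sampling of reads alone. At 30 min, 23 collagen genes were lower than at 0 min and 16 were higher, with a median change of -0.20 and a range of -0.37 to 0.51. Over all 19709 genes measured, 71.3% were lower and the median was -0.14. COL11A1 was the only collagen gene past 0.5 in either direction, where 0.345% of all genes were higher and 1.99% lower by that much. Of the collagen genes, 22 were lower and 12 higher by more than 2 counting SE, beside 47.8% and 16.2% of the genes with an SE. Longer genes gather more reads and so have a smaller SE. Collagen genes are long, and the shares past 2 counting SE here and below were not matched for length. At 60 min the changes from 0 min were smaller. Again 23 collagen genes were lower and 16 higher, with a median of -0.04 (all genes -0.03) and a range of -0.23 to 0.18, and none passed 0.5 (all genes 0.249% higher and 0.639% lower). By more than 2 counting SE, 16 were lower and 8 higher, beside 19.8% and 7.65% of the genes with an SE. Both comparisons share the 0 min library. From 30 to 60 min, 26 were higher and 13 lower (28.3% of all genes lower), with a median of 0.09, the same as over all genes. None passed 0.5 (all genes 0.756% higher and 0.294% lower), and 20 were higher and 8 lower by more than 2 counting SE, beside 35% and 12.4% of the genes with an SE.

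**Figure D1:**
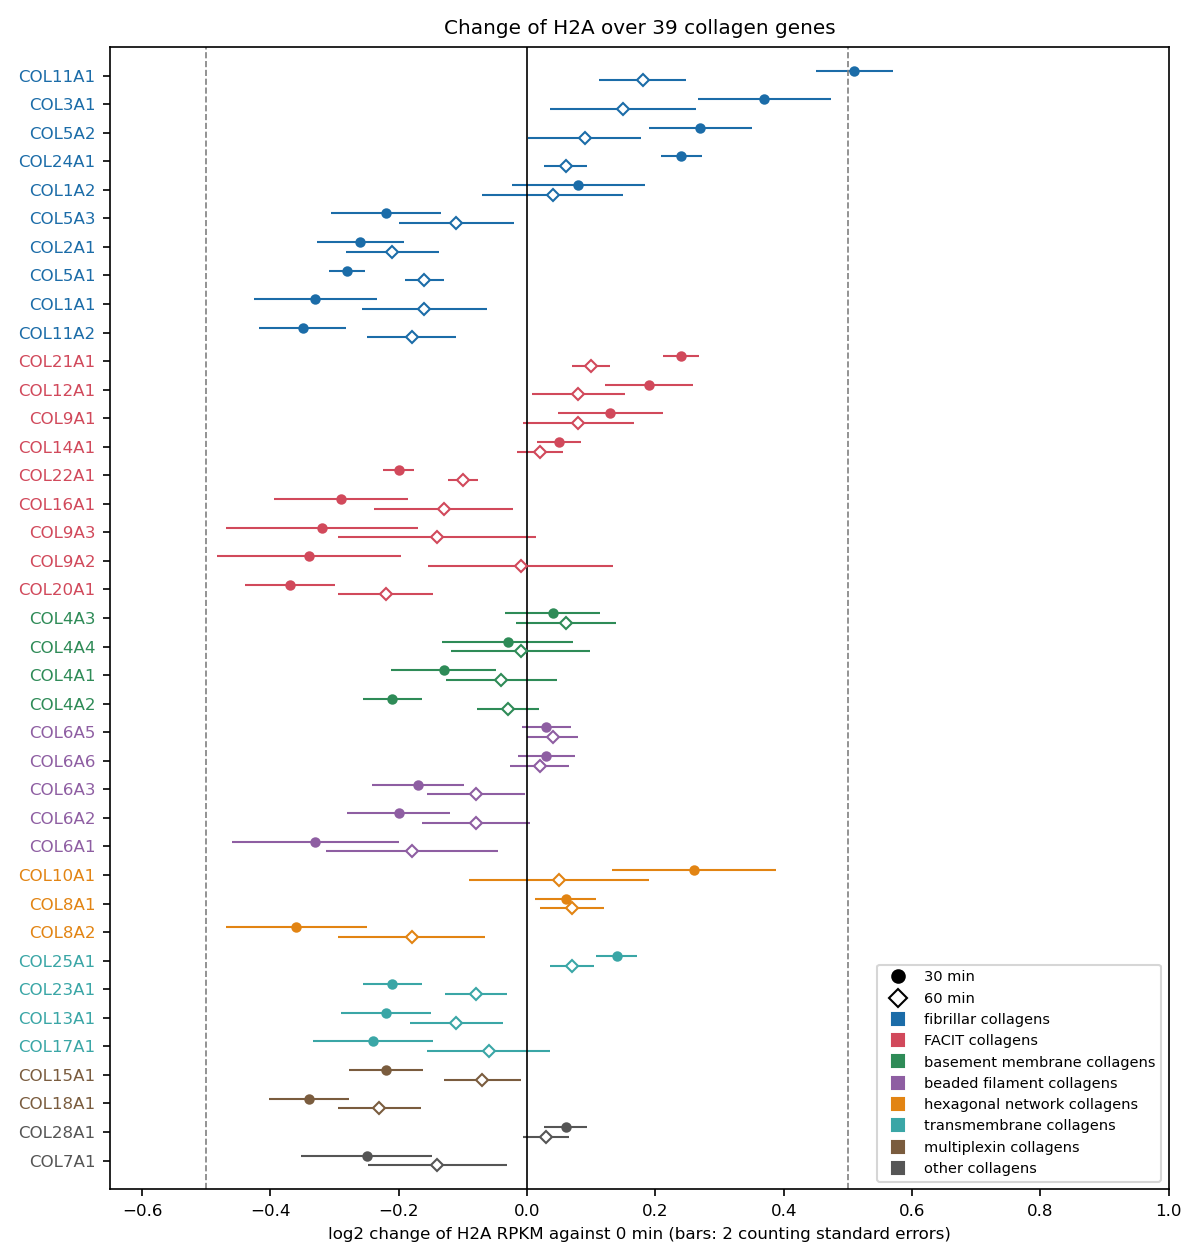
Change of H2A RPKM on the log2 scale against 0 min for each of the 39 collagen genes, by class (colours), at 30 min (filled circles) and 60 min (open diamonds). Bars are 2 counting SE and dashed lines mark 0.5 either way. COL11A1 at 30 min is the only point past a dashed line, and most diamonds sit nearer to 0 than their circle.

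The fibrillar collagens build the banded fibrils of skin, bone, cartilage and vessel walls. Their 10 genes split evenly at 30 min, with 5 higher and 5 lower. COL11A1 (ENSG00000060718, chr1:103342023-103574052 on GRCh37), which encodes a chain of the minor fibrillar collagen XI of cartilage, had 1.528 RPKM at 0 min, 2.203 at 30 min and 1.734 at 60 min. The middle time was the highest: the change was 0.51 (SE 0.030) for 30 min and 0.18 (SE 0.034) for 60 min. COL3A1 (ENSG00000168542), the gene of collagen III of elastic tissues, had 1.159, 1.513 and 1.292 RPKM, a change of 0.37 (SE 0.052) at 30 min. COL5A2, a chain of the fibril-initiating collagen V, read 0.420, 0.517 and 0.449 RPKM, a change of 0.27 (SE 0.040). These genes share the same shape over time, highest at 30 min and between the other times at 60 min. COL24A1 followed with 1.178, 1.404 and 1.234 RPKM, a change of 0.24 (SE 0.016). The genes were named for a high change at 30 min, so a peak at that time is in part given by the choice. Over all genes in bins of GC content centred on 33% and 35%, the median change was 0.372 and 0.277 at 30 min. At 60 min it was 0.096 and 0.081.

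For the partner chains of these collagens, the reading at 30 min was lower than at 0 min. COL11A2 (ENSG00000204248), the second chain of collagen XI, had 6.189 RPKM at 0 min, 4.836 at 30 min and 5.476 at 60 min (-0.35, SE 0.034). COL5A1, the main chain of collagen V, had 4.933, 4.057 and 4.411 RPKM, a change of -0.28 (SE 0.014). The pair of collagen I, the main collagen of bone and skin, differed in direction, although 1 of its changes lay within counting error. COL1A1 had 9.448, 7.484 and 8.434 RPKM (-0.33, SE 0.048), while COL1A2 had 3.239, 3.417 and 3.333 RPKM (0.08, SE 0.052), the change below 2 counting SE. COL2A1, the gene of cartilage collagen II, had 7.260, 6.039 and 6.257 RPKM (-0.26, SE 0.034). COL5A3 changed by -0.22. In each of collagen I, V and XI, the chain whose gene read lower had the higher GC content: 58.5% for COL1A1 against 37.6% for COL1A2, 56.0% for COL5A1 against 34.6% for COL5A2, and 56.6% for COL11A2 against 33.1% for COL11A1.

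FACIT collagens sit on the surface of fibrils and link them to other matrix proteins. Of 9 genes, 5 were lower at 30 min and 4 higher, all of them by more than 2 counting SE. COL20A1 (ENSG00000101203, chr20:61924538-61962284) had 5.239, 4.055 and 4.476 RPKM, and its change of -0.37 (SE 0.035) was the lowest among all collagen genes. COL9A2, a chain of the cartilage collagen IX, had 4.229 RPKM at 0 min, 3.325 at 30 min and 4.185 at 60 min. Its 30 min value was the low one (-0.34, SE 0.072), and its 60 min value was back near the start (-0.01, SE 0.072). The other chains of collagen IX stood apart from each other: COL9A3 changed by -0.32 (SE 0.075) and COL9A1 by 0.13 (SE 0.041), from 3.959 to 4.330 RPKM and then 4.180. COL21A1 had 4.181, 4.936 and 4.480 RPKM, a change of 0.24 (SE 0.014). COL12A1 changed by 0.19, COL14A1 (4.241, 4.383 and 4.302 RPKM) by 0.05, COL22A1 (4.034, 3.495 and 3.752 RPKM) by -0.20 and COL16A1 by -0.29.

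**Figure D2:**
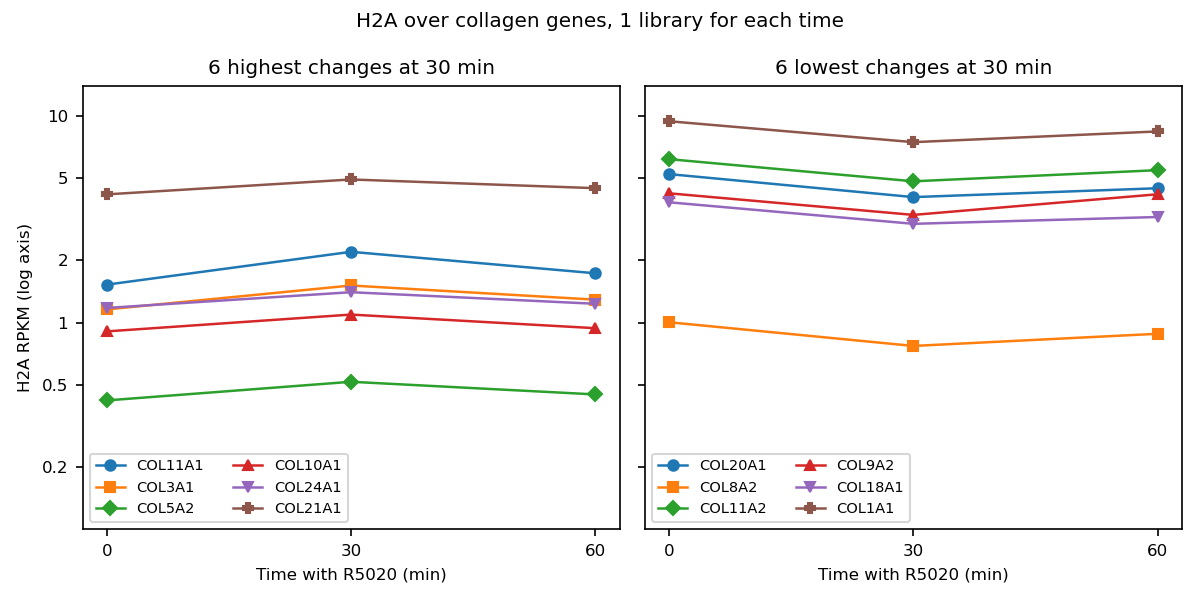
H2A RPKM on a log axis at 0, 30 and 60 min for the 6 collagen genes with the highest and the 6 with the lowest change at 30 min, 1 library a time. All 12 lines have their turning point at 30 min, which is in part given by choosing genes on their change at that time. COL9A2 ends nearest to its level at 0 min (4.229 and 4.185 RPKM). RPKM grows with the number of annotated transcripts, so the height of a line is not comparable between genes.

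Basement membrane collagen IV forms the sheet on which epithelial cells rest. Its 4 autosomal genes lie in 2 pairs that are transcribed away from each other. COL4A1 and COL4A2, the chains found in nearly all basement membranes, are separated by 117 bp on chromosome 13. COL4A1 had 1.927, 1.755 and 1.877 RPKM (-0.13 at 30 min, SE 0.041) and COL4A2 had 4.703, 4.048 and 4.594 RPKM (-0.21, SE 0.023). Both were lower at 30 min, and at 60 min both were within 2 counting SE of 0 min (-0.04 and -0.03). COL4A4 and COL4A3, which encode chains of kidney and lung basement membranes, are separated by 451 bp on chromosome 2. COL4A4 had 0.519, 0.506 and 0.517 RPKM (-0.03, SE 0.051) and COL4A3 had 1.550, 1.592 and 1.621 RPKM (0.04, SE 0.037), so neither passed 2 counting SE at 30 min.

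Beaded filament collagen VI surrounds cells in most connective tissue. COL6A1, which encodes a short chain, had the change -0.33 (SE 0.065), COL6A2 -0.20 (SE 0.040) and COL6A3 -0.17 (SE 0.036, from 4.944 to 4.396 and then 4.672 RPKM). COL6A5 and COL6A6, which lie 75.5 kb apart on chromosome 3, both changed by 0.03 and stayed within 2 counting SE. Of the hexagonal network collagens, COL10A1, a marker of hypertrophic cartilage, had 0.907, 1.094 and 0.940 RPKM (0.26, SE 0.064). COL8A2, expressed in the corneal endothelium, had 1.004, 0.771 and 0.883 RPKM (-0.36, SE 0.055), the second lowest change. Its partner COL8A1 had 2.632, 2.754 and 2.764 RPKM (0.06, SE 0.024).

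Transmembrane collagens span the plasma membrane and can be shed. COL17A1, a component of hemidesmosomes in epithelia, changed by -0.24 (SE 0.047), COL13A1 by -0.22 (SE 0.035) and COL23A1 by -0.21 (SE 0.023, with 1.425, 1.223 and 1.343 RPKM), while COL25A1, a collagen of neurons, changed by 0.14 (SE 0.016). Both multiplexins were lower. COL18A1, whose protein releases the fragment endostatin, had 3.826, 3.010 and 3.248 RPKM (-0.34, SE 0.031), and COL15A1 changed by -0.22 (SE 0.029). Among the remaining genes, COL7A1, the anchoring fibril of skin, changed by -0.25 (SE 0.051) and COL28A1 by 0.06 (SE 0.017, with 3.061, 3.189 and 3.129 RPKM). No collagen gene was higher at one time and lower at the other by more than 2 counting SE both times. The share of all genes that did so was not computed, and both comparisons use the same 0 min library.

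Across the classes the changes followed GC content. All 16 collagen genes with a GC content under 40% were higher at 30 min, where 8.70% of all genes in that range were lower. All 7 between 40% and 50% were lower (86.3% of all such genes), and so were all 16 above 50% (97.3%). At 60 min the same 16 were higher and the same 23 lower, where 16% of all genes under 40% were lower, 64.8% of those between and 89.1% of those above. Across the 39 genes, the change at 30 min and GC content had a Pearson r of -0.924 and a Spearman rho of -0.965, and across all genes measured the values were -0.762 and -0.846. At 60 min they were -0.927 and -0.929 over the collagen genes, and -0.568 and -0.682 over all genes measured. The collagen genes and all genes were not matched for length. These are descriptions across genes that share the same libraries. The GC ranges were chosen after the values were seen.

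After the trend with GC content over all genes was taken off, the 39 changes at 30 min ran from -0.07 to 0.11, with a median of -0.01, and 20 of the 39 changed sign. COL11A1 (0.11), COL6A2 (0.09), COL21A1 (0.04) and COL24A1 (0.03) were then higher by more than 2 counting SE, and COL6A5 (-0.05) and COL25A1 (-0.04) lower. That is 4 and 2 genes of 39, beside 6.05% and 6.76% of the genes with an SE. COL9A2, at -0.34 before, was at -0.03. At 60 min, COL9A2 (0.15), COL11A1 (0.08) and COL21A1 (0.04) were higher and COL22A1 (-0.05) lower by that rule, beside 2.65% and 3.77% of those genes. From 30 to 60 min, 4 were higher and 4 lower, beside 5.41% and 5.32% of them. COL11A1 and COL21A1 were thus on the higher side in both comparisons, which share the 0 min library. COL11A1, at 33.1% GC, lies where genes are few: the bin centred on 33% held 110. Its changes before adjustment (0.51 and 0.18) were within the 5th to 95th percentile of that bin. These were 0.076 to 0.541 at 30 min and -0.208 to 0.279 at 60 min.

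**Figure D3:**
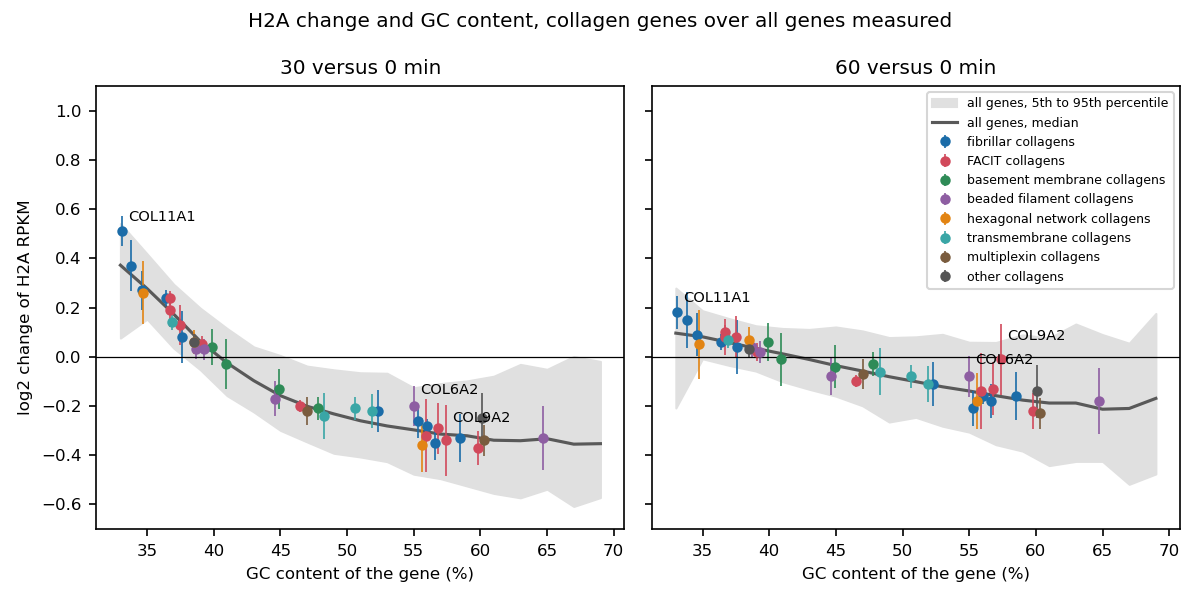
Change of H2A RPKM on the log2 scale at 30 min (left) and 60 min (right) against the GC content of the gene, for the 39 collagen genes (points with 2 counting SE, coloured by class) over the median and the 5th to 95th percentile of all genes measured in bins of GC content. The collagen genes lie along the line of all genes at both times, and the slope is flatter at 60 min.

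The genes around each collagen gene were compared with it. The median change at 30 min was taken over the genes within 1 Mb, without those that carry a collagen symbol. COL19A1, with a dot in the symbol column, therefore stayed among the neighbours of COL9A1. The neighbour median had the same sign as the collagen gene in 36 of 39 cases (92.3%). Over the 39, the Pearson r was 0.916 and the Spearman rho 0.850. Over the 18749 autosomal genes with at least 3 neighbours, the sign was shared by 80.5%, with 0.625 and 0.645. The collagen genes and these genes were not matched for length, and longer genes have a smaller SE. The difference between gene and neighbours ran from -0.17 to 0.22, within the 5th to 95th percentile of all such genes (-0.24 to 0.27). It was highest for COL11A1 (0.22, with 3 neighbours at a median of 0.29), COL28A1 (0.21) and COL3A1 (0.20) and lowest for COL9A2 (-0.17). These differences still hold the GC trend. With that trend taken off, the changes of the genes themselves were 0.11 for COL11A1, -0.03 for COL28A1, 0.00 for COL3A1 and -0.03 for COL9A2. COL3A1 and COL5A2, which face each other 19.1 kb apart on chromosome 2, were both higher. COL6A1 and COL6A2, 93.1 kb apart, were both lower. The comparison with neighbours was chosen after the values were seen.

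Of 49 other genes of collagen biology, 46 were found in the table by symbol. P4HA2, P3H3 and ITGA1 were not analysed here. At 30 min, 33 were lower and 13 higher with a median of -0.18, where 71.3% of all genes were lower with a median of -0.14. None passed 0.5, and 26 were lower and 9 higher by more than 2 counting SE, beside 47.8% and 16.2% of the genes with an SE. Among the enzymes and chaperones that modify and fold the chains, 10 of 14 were lower. The lowest were FKBP10, a prolyl isomerase of the endoplasmic reticulum (6.427, 4.969 and 5.850 RPKM, -0.37, SE 0.093), SERPINH1, the collagen chaperone HSP47 (9.884, 7.755 and 8.738 RPKM, -0.35, SE 0.068), and PLOD3, a lysyl hydroxylase (5.013, 3.972 and 4.362 RPKM, -0.33, SE 0.091). PLOD2, the lysyl hydroxylase of the telopeptides, was the highest (4.333, 5.197 and 4.553 RPKM, 0.26, SE 0.044). It was followed by TLL1, a procollagen C-proteinase (1.273, 1.534 and 1.360 RPKM, 0.26, SE 0.023), and by LOX, a lysyl oxidase that cross-links fibrils (1.952, 2.263 and 2.058 RPKM, 0.21, SE 0.072). Of the genes for export and processing 6 of 10 were lower, of the lysyl oxidases 4 of 5, of the collagen receptors 7 of 9 and of the breakdown enzymes 6 of 8, all counts to be read against the 71.3% of all genes. Without the GC trend their median was -0.01.

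Peaks of the other proteins were counted over each gene body plus 5 kb on either side, 5.44 Mb in all or 0.189% of the autosomes. At 0 min, 48 HP1γ peaks lay at 16 collagen genes (41%), beside 31.1% of all autosomal genes with at least 1 peak. At 30 min there were 30 peaks at 12 genes (30.8%, all genes 26.6%). LSD1 had 40 peaks at 15 genes at 0 min (38.5%, all genes 27.2%) and 18 peaks at 10 genes at 30 min (25.6%, all genes 25.4%). The whole lists shrank as well, from 31845 to 23836 peaks for HP1γ and from 34990 to 20495 for LSD1, and the depth of these libraries is unknown, so counts at different times cannot be set against each other as gain or loss.

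Collagen genes are long, and long genes hold a peak more often. Of the 20 collagen genes of at least 100 kb, 55% held an HP1γ peak at 0 min and 50% at 30 min, beside 62.1% and 62.3% of all genes of that length. For LSD1 the shares were 55% and 45%, beside 58.2% and 62.2%. Of the 19 shorter ones, 26.3% and 10.5% held an HP1γ peak (25.7% and 20.4% of all shorter genes) and 21.1% and 5.26% an LSD1 peak (21.8% and 18.9%). Set against the peak density of their chromosomes, the collagen windows held 0.838 times the given number of HP1γ peaks at 0 min and 0.684 times at 30 min, and 0.616 and 0.473 times for LSD1. Over the windows of all autosomal genes the same ratios were 1.06, 1.04, 1.08 and 1.05. The given number, summed over the 4 lists, ran from 0.33 at COL3A1 to 23.9 at COL22A1, so a few windows weigh most in the collagen ratios. The mean of a chromosome also takes no account of uneven density along it. The split by length was chosen after the values were seen. No HP1γ peak of 48 at 0 min overlapped one at 30 min, where 4.31% of the whole list did. For LSD1, 1 of 40 did (2.5%), beside 3.71% of the list.

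The peaks gathered at few genes. COL28A1 held 30 HP1γ and LSD1 peaks over the 4 lists, COL21A1 16 and COL22A1 15, together 61 of 137. COL5A1 held 12, COL14A1 and COL23A1 9 each, COL8A1 7, and COL4A2 and COL2A1 6 each. At the other end, 14 genes held no peak of any protein and 16 no HP1γ or LSD1 peak. The matching shares of all genes were not computed, so these counts have nothing to be read against. COL11A1, the gene with the highest H2A change, had no peak in its 242 kb window, where the density of chromosome 1 gives 10.1. COL13A1 and COL6A6 also had none, where 9.97 and 11.4 were given. By class, the FACIT genes held 44 peaks in 1.2 Mb of windows, COL28A1 and COL7A1 31 in 0.229 Mb, the fibrillar genes 25 in 1.32 Mb, the basement membrane genes 12 in 0.716 Mb and the transmembrane genes 12 in 1.09 Mb. The hexagonal network genes held 9 in 0.254 Mb, the beaded filament genes 3 in 0.452 Mb and the 2 multiplexins 1 in 0.205 Mb. Peak density differs between chromosomes: it gives 15.2 peaks in the 170.8 kb window of COL8A1 and 1.08 in the 158 kb window of COL5A2. The class counts were not set against it, so they do not rank the classes. Over the 39 genes, the number of peaks and the H2A change at 30 min had a Pearson r of 0.110 and a Spearman rho of 0.150, and the number of peaks and gene length 0.467 and 0.597.

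**Figure D4:**
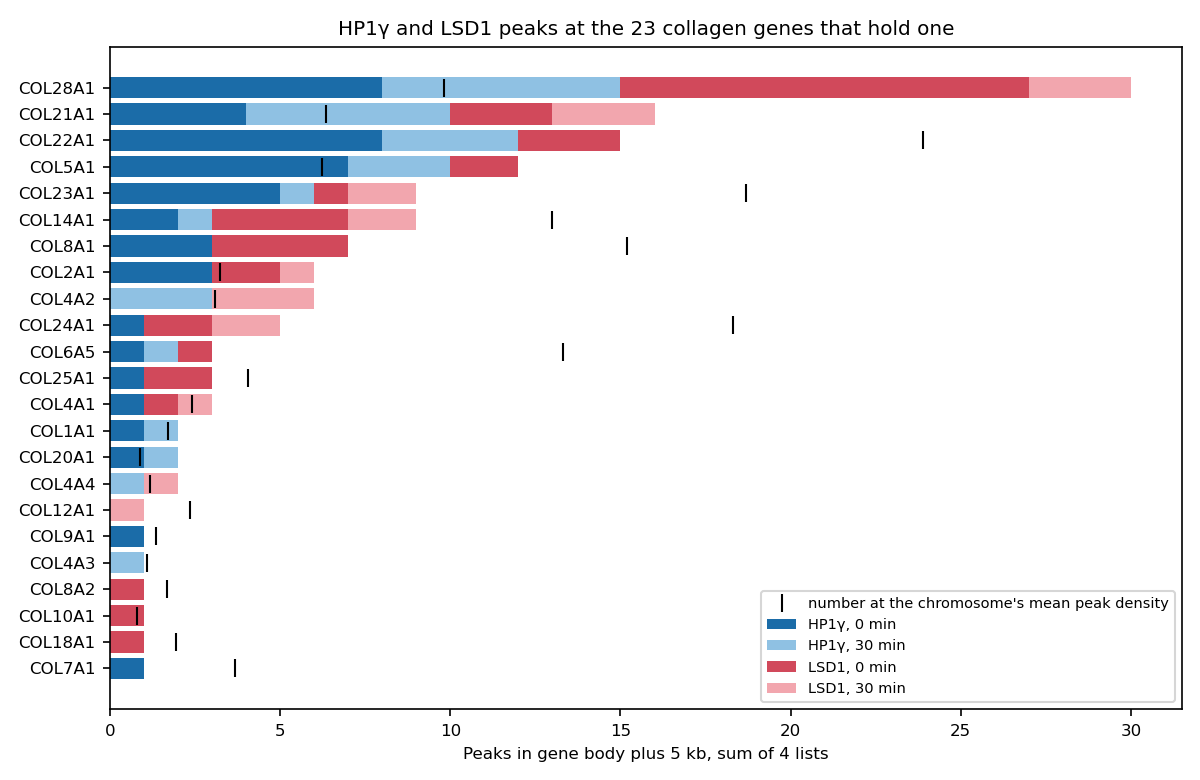
Number of HP1γ and LSD1 peaks in the gene body plus 5 kb for the 23 collagen genes that hold any, stacked by list, with a black tick for the number that the mean peak density of the chromosome gives over the 4 lists. COL28A1, with 30 peaks, exceeds its tick of 9.81, while COL22A1, COL23A1 and COL24A1 lie to the left of theirs.

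COL28A1 (ENSG00000215018, chr7:7397506-7575484, minus strand), which encodes collagen XXVIII, known from peripheral nerve, had 8 HP1γ peaks at 0 min, 7 at 30 min, 12 LSD1 peaks at 0 min and 3 at 30 min. LSD1 peaks at 0 min stood at 63.8 per Mb, beside 38 per Mb in the 1 Mb on either side and 17.6 per Mb on chromosome 7. Of all 2894 genes of at least 100 kb, 3.9% were as dense or denser in this list. HP1γ at 0 min stood at 42.6 per Mb, beside 33.5 and 15.1, and 6.12% of these genes were as dense or denser. At 30 min HP1γ stood at 37.2 per Mb, beside 25 and 10.8 (3.56% as dense or denser), and LSD1 at 16 per Mb, beside 13.5 and 8.72 (17.2% as dense or denser). The neighbourhood was thus itself above its chromosome. An HP1γ and an LSD1 peak overlapped at 0 min near 71.8 kb and near 45.7 kb from the start of the gene. The LSD1 peak near 71.7 kb had the highest score of any LSD1 peak at a collagen gene at 0 min (66.75), and the HP1γ peak at 131 kb that of HP1γ at 30 min (62.43). COL28A1 also held 2 displaced BPTF peaks, at 31.9 and 171.6 kb, both in introns. The centres of the displaced BPTF peaks are shown because COL28A1 was the only collagen gene with 2 of them. They are 200 bases from GRCh37, and capitals would mark AGAACA or TGTTCT, of which these hold none.
COL28A1 displaced BPTF peak at 31.9 kb, chr7:7543453-7543652, plus strand: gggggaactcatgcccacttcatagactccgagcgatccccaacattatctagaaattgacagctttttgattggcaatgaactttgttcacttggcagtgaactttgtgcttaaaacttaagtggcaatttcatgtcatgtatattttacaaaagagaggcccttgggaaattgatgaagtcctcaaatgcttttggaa
COL28A1 displaced BPTF peak at 171.6 kb, chr7:7403748-7403947, plus strand: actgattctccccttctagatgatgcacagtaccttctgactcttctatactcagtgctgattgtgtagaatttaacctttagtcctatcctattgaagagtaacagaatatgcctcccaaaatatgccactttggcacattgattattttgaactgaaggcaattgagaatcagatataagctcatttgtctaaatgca

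**Figure D5:**
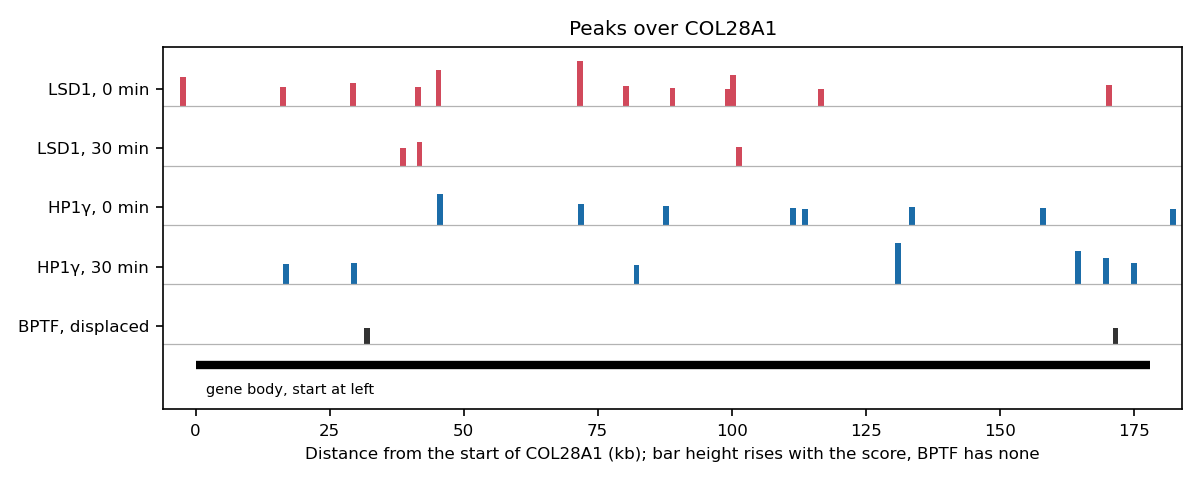
Position of the peaks over COL28A1 in kb from the start of the gene (black bar, start at left), by list, with bar height rising with the deposited score and BPTF without a score. LSD1 at 0 min has 12 bars along the whole gene and LSD1 at 30 min has 3, and the HP1γ bars at 45.7 and 71.8 kb stand over LSD1 bars of 0 min.

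COL21A1 (chr6:55921388-56258892) held 4 HP1γ peaks at 0 min, 6 at 30 min and 3 LSD1 peaks at each time, 16 where the density of chromosome 6 gives 6.34. An HP1γ and an LSD1 peak overlapped near 106.1 kb from its start at 30 min. COL22A1 held 8 and 4 HP1γ peaks and 3 LSD1 peaks, all at 0 min for LSD1, and its 15 peaks fell short of the 23.9 given. COL14A1 held 9 where 13 were given.

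COL5A1 (chr9:137533620-137736686) held 7 HP1γ peaks at 0 min and 3 at 30 min, and 12 of all kinds against 6.24 given. Its peak in an intron 4.63 kb after the start had the highest HP1γ score at 0 min among collagen genes (50.71), and its centre is shown for that reason.
COL5A1 HP1γ peak, 0 min, chr9:137538150-137538349, plus strand: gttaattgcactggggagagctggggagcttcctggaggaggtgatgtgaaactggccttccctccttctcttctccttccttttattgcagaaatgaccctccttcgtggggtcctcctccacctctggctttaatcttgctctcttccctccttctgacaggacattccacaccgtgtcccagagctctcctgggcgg

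COL23A1 (ENSG00000050767, chr5:177664619-178017556) held 5 HP1γ peaks at 0 min and 1 at 30 min, 1 LSD1 peak at 0 min and 2 at 30 min. The highest LSD1 score at 30 min among collagen genes (60.8) belonged to a peak in its intron, at chr5:177875055-177875503. The 200 bases at the centre repeat a unit of 30 bases without a mismatch, and the reference holds 12.4 copies of it over 373 bp. TGTTCT stands in capitals and occurs 7 times in the 200 bases and 12 times in the whole repeat. None of the other 4 peak centres printed here matched itself at more than 41.5% of bases at any shift tried. The search for repeats was made after the sequence was seen.
COL23A1 LSD1 peak, 30 min, chr5:177875180-177875379, plus strand: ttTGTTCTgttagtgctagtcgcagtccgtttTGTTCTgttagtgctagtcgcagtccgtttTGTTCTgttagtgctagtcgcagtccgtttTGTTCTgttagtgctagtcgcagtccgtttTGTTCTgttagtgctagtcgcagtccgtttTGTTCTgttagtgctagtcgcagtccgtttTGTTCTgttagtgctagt

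Peaks within 1 kb of a start site were counted next. An HP1γ peak at 0 min lay near the gene start of COL1A1, centred 0.404 kb inside the gene with a score of 48.07, and another near that of COL2A1, centred 0.275 kb inside with a score of 30.2. Neither peak covered the start itself, and neither gene had an HP1γ peak within 1 kb of its start at 30 min. Within 1 kb of an internal transcript start lay LSD1 peaks at 0 min at COL8A2, COL4A1, COL28A1 and COL14A1 and an HP1γ peak at 30 min at COL28A1. The share of peaks near a start site was not computed over the whole lists or over other genes. The single LSD1 peak in front of the paired COL4A1 and COL4A2, at 30 min, lay in the first gene 2.71 kb from its start and was counted for both. COL4A2 had 3 HP1γ and 3 LSD1 peaks, all at 30 min, and COL4A3 and COL4A4 had 3 in all, also all at 30 min. COL4A1 had 1 HP1γ and 1 LSD1 peak at 0 min, and at 30 min the shared LSD1 peak alone.

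BPTF was deposited as 2 lists of the authors' own comparison, peaks displaced and peaks recruited after hormone, without scores. Displaced peaks lay at 5 collagen genes (12.8%, beside 9.55% of all genes): 2 at COL28A1 and 1 each at COL4A2, COL6A3, COL23A1 and COL9A1. All 6 were in introns. By length, 15% of the collagen genes of at least 100 kb held one, beside 32.2%, and 10.5% of the shorter ones, beside 5.58%. Recruited peaks lay at 3 (7.69%, beside 5.5%), namely COL1A1, COL5A2 and COL18A1, and all 3 touched an exon. Here 5% of the long ones held one, beside 15.4%, and 10.5% of the shorter ones, beside 3.77%. Introns and exons were not counted over the whole lists, so the 2 lists cannot be contrasted by location. The H2A change at 30 min was -0.33 at COL1A1, 0.27 at COL5A2 and -0.34 at COL18A1, and at the genes with a displaced peak it ran from -0.21 to 0.13. The recruited peak of COL1A1 (ENSG00000108821, chr17:48260650-48278993, minus strand), 4.92 kb after the start, is shown as the example from the best known collagen gene. The example was chosen after the lists were seen.
COL1A1 recruited BPTF peak, chr17:48273978-48274177, plus strand: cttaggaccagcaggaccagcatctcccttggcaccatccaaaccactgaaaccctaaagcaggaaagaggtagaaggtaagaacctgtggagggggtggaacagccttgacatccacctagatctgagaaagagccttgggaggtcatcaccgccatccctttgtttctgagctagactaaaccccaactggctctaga

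In the pathway list, displaced BPTF peaks lay at P4HA1, PLOD2, SERPINH1, ITGA2 and MMP8, 1 each, and no gene held a recruited one, beside 9.55% and 5.5% of all genes. P4HA1, a catalytic subunit of prolyl hydroxylase, read 1.551, 1.792 and 1.713 RPKM of H2A (0.20, SE 0.033), ITGA2, a collagen-binding integrin, 3.370, 3.452 and 3.481 (0.03, SE 0.021), and MMP8, a collagenase, 2.624, 2.457 and 2.738 (-0.09, SE 0.067). P3H2, a prolyl hydroxylase of collagen IV, held 16 HP1γ and 21 LSD1 peaks at 0 min and 5 and 2 at 30 min. It is named here after its values were seen, and the number given by the density of chromosome 3 was not computed for it. The whole lists shrank as well and library depth is unknown, so the lower counts at 30 min cannot be read as loss.

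The progesterone receptor is known to bind pairs of the 6-base motif AGAACA, which reads TGTTCT on the other strand. The motif was searched on both strands in 200 bases round each peak centre, and so was the palindromic core of the progestin response element, a looser paired form of 13 bases that can overlap it. At collagen genes the 6-base motif was found in 18.8% of HP1γ peaks at 0 min (whole list 16.5%), 10% at 30 min (16.7%), 20% of LSD1 peaks at 0 min (18.1%) and 38.9% at 30 min (16.7%). The last share is 7 of 18 peaks. None of the 9 BPTF peaks held it, where 17.7% of displaced and 19.7% of recruited peaks did. The paired form was found in 1 HP1γ peak at 30 min and in no other peak at a collagen gene, beside shares of 0.181% to 1.3% over the lists. RefSeq promoters (GRCh38.p14) were matched for 27 collagen genes with 38 entries. In the 200 bases before the start none held the 6-base motif, which 9.78% of all promoters in that table held over the same length. The GC content of these collagen stretches had a median of 67.2%, and the comparison was not matched for it. Some genes had several entries, and the other collagen genes had none.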

How the data were processed

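The titles of the ChIP-seq samples gave antibody and time, and so 9 groups of 1 library. Reads were handled with Bowtie 1.0.0 and HOMER 4.7.2 on hg19 (GRCh37), according to the submitters' processing notes. The H2A values were deposited as RPKM, counted by the authors with HOMER on both strands over GENCODE version 18 genes, per the file headers. HP1γ and LSD1 peaks were deposited with a score, which served only to order peaks or set a minimum inside 1 list. The meaning of the score, the peak caller and any control are not given in the sources used here. BPTF peaks came as positions, taken to start at 0 as in BED, an assumption that could shift them by 1 base. No input library was analysed here.

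H2A reads were recovered from the steps of the RPKM of genes with 1 transcript. Depths were searched between 100 M and 200 M reads, a range narrowed after a wider search had settled near a multiple of the depth at 60 min. They came to 140.5, 168.3 and 132.8 M reads at 0, 30 and 60 min, with 98.7% of 79, 100% of 69 and 98.8% of 82 low values whole within 0.1 reads. RPKM grew with the number of annotated transcripts, so levels were compared between times within a gene. Counting SE used the reads divided by the transcript number in GENCODE version 44 lifted to GRCh37, which 96.5% of genes had. The SE covers no spread between cultures. The GC trend was a lowess of the change on the GC content of the gene, with fraction 0.2. Peaks were assigned by an overlap of at least 1 bp. Scripts ran in Python 3.11.15 with pandas 2.3.3, statsmodels 0.14.6 and pysam 0.24.0, and the recovery of known changes was tested on simulated data.

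Named with their values were the 6 highest and 6 lowest changes at 30 min, genes past 0.5, genes with a BPTF peak, the genes with most HP1γ and LSD1 peaks, genes with a peak within 1 kb of a start site and pairs with overlapping windows, and of the pathway list the 3 highest and 3 lowest changes and any gene with a BPTF peak. The members and lists were chosen with earlier results of these data known. The pseudocount, the filter on low values, the centring, the GC trend, the threshold, the score and the window were varied. Some sequences are not reported here.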

Additional observations from a re-analysis of the deposited data

How the results depend on the processing

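No paired analysis was possible because each antibody and time had 1 library, and no replicate could be left out. At 30 against 0 min the median change of the 39 genes was -0.20. It was -0.15 with a pseudocount of 0.5, -0.06 after centring on the median of all genes, and -0.01 with the GC trend taken off at either lowess fraction (0.2, or 0.05, which was added after seeing the data). The 1 gene past 0.5 became 0 with the pseudocount of 0.5 and with the GC trend off at either fraction, 2 with centring, and 10 with a threshold of 0.3. With the GC trend off, 2 genes were lower and 4 higher by more than 2 counting SE, and 3 and 4 at fraction 0.05. At 60 against 0 min the median of -0.04 turned to 0.01 with the GC trend off at either fraction, with 1 lower and 3 higher by more than 2 counting SE, or 2 and 3 at fraction 0.05. Those higher were 5 with the pseudocount of 0.5 and 14 with centring. From 30 to 60 min the median of 0.09 was 0.01 with centring and with the GC trend off. Lower and higher past 2 counting SE were then 15 and 4 with centring and 4 and 4 with the GC trend off, and 2 genes passed 0.3. With the GC trend off 20 of 39 genes had the other sign at 30 min, and with centring 2. The cause of these shifts was not tested.

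With a score of at least 50, HP1γ kept 2 peaks at 2 genes at 0 min and 3 at 2 at 30 min, and LSD1 3 at 2 and 2 at 2. The gene body alone, a margin of 20 kb and the peak centre left the counts of peaks and of genes with a peak within 1.5 times. The depth of the HP1γ, LSD1 and BPTF libraries is unknown, which limits what a missing peak shows.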

Other observations

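A further 4 collagen genes were in the H2A table but outside the rule. The X-linked COL4A5 (35.8% GC) had 1.066, 1.314 and 1.161 RPKM of H2A at 0, 30 and 60 min, a log2 change of 0.29 at 30 min. Its head-to-head neighbour COL4A6 (40.2% GC) had 1.486, 1.403 and 1.486 RPKM, a change of -0.08. COL19A1 (36.6% GC) had 1.987, 2.240 and 2.038 RPKM, a change of 0.17, and COL27A1 (52.2% GC), a fibrillar collagen, had 5.693, 4.781 and 5.307 RPKM, a change of -0.25. With the GC trend taken off, these were 0.04, -0.09, -0.03 and 0.02.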
